A study of Oryza sativa Japonica Group with 9 samples.

Results

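Transcript levels in developing rice grains (caryopses) of plants edited in ARF4 were compared with those of wild-type plants of the same cultivar, the japonica rice Nipponbare. The comparison rests on 6 RNA sequencing libraries, 3 labelled ARF4-/- and 3 labelled WT, of 9 in the series. The other 3 libraries, from plants labelled GSK5-/-, are given only as context. Levels are in FPKM, a fragment count corrected for gene length and for sequencing depth. A gene entered the comparison when 3 or more of the 6 libraries reached 1 FPKM, which kept 22334 of 55986 gene models. The sample labels give day 9 after flowering and the series text gives 7 to 8 days, and which of these holds was not settled. The labels do not say whether the edited plants of a group descend from 1 line, nor whether its libraries are from separate plants. The p-values therefore cover only the variation among these libraries, part or all of which may be technical.

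Auxin response factors are transcription factors that bind the promoters of auxin-responsive genes. At low auxin they are held by Aux/IAA repressor proteins, and auxin triggers the destruction of those repressors through the TIR1-type receptors. ARF proteins either activate or repress their targets, and in grains auxin is known for its part in cell division, cell expansion and the filling of the endosperm. GSK3-like kinases, the family that gives GSK5 its name, are known as negative regulators of brassinosteroid signalling.

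Differences are given as log2 changes, ARF4-edited minus WT, of log2(FPKM + 1), with the standard error (SE) of the limma fit over the 6 libraries and its Benjamini-Hochberg adjusted p over all 22334 genes. A gene was called when the adjusted p was under 0.05. On this scale the change of a gene with low FPKM is understated. Summed FPKM lay between 585414 and 626390 in the 9 libraries, and 20840 to 23172 genes reached 1 FPKM. Absolute depth is unknown; relative depth was 95% to 100% in WT and 80% to 93% in the ARF4-edited libraries, with WT replicate 1 set to 100%. Replicates of both groups differed widely. Across genes, which are not independent replicates, a library correlated with the others of its group at a mean Pearson r of 0.905 to 0.936 in WT and 0.897 to 0.939 in ARF4-edited grains, against 0.979 to 0.984 in GSK5-edited grains. A range of more than 3 on the log2 scale was found within WT for 355 of the 22334 genes, within ARF4-edited grains for 347 and within GSK5-edited grains for 49. WT replicate 1 was the library farthest from the median of its group in 198 of the 355 genes. ARF4 replicate 3 was the farthest in 191 of the 347 and ARF4 replicate 2 in 143. In bulk tissue, fewer cells of a type and less RNA per cell cannot be told apart.

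Marker genes were read beside the tissue label, and they did not bear out filling grains in full. Several storage and starch genes of the endosperm were low, while SWEET11 and floral organ genes were abundant. The stage of the grains was not settled by these values. Of 6 endosperm markers, NF-YB1, a transcription factor of the endosperm, stayed under 1 FPKM in every library, and GBSSI, the granule-bound starch synthase that makes amylose, did not pass the filter. The glutelin genes GluA1 and GluA2, which encode the main storage proteins of the rice endosperm, reached 9.73 and 4.8 FPKM at most. SWEET11, a sugar exporter used in grain filling, and SSI, a soluble starch synthase, were present in every library. The summed FPKM of the 6 markers was 350.4 to 1604 in WT and 214.5 to 1408 in ARF4-edited grains, most of it from SWEET11. The summed FPKM of 5 floral organ and nucellus genes (MADS3, MADS13, MADS16, MADS29 and MADS58) was 404.4 to 699.4 in WT and 492 to 622.1 in ARF4-edited grains. Of 5 embryo markers, the oleosin gene OLE18 stayed under 1 FPKM in every library. Their sum was 40.46 to 64.31 in WT, 21.9 to 40.59 in ARF4-edited and 156.1 to 200.2 in GSK5-edited grains. Most of the sum in GSK5-edited grains came from the late embryogenesis gene LEA3. For 3 markers of the green pericarp (RCA, CAB1R and CAB2R) the sum was 666.1 to 1001 in WT and 938.3 to 2424 in ARF4-edited grains. The higher sums came from CAB1R and CAB2R: RCA had overlapping groups, with means of 197.9 FPKM in WT and 185.9 in ARF4-edited grains. The genes entered as RBCS2 and RBCS3 (names unchecked) lay the other way, with means of 111.5 and 1433 FPKM in WT and 28.85 and 769.4 in ARF4-edited grains.

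ARF4 itself (LOC_Os01g70270), the edited gene, was measured first. It stood at 91.82, 92.48 and 67.58 FPKM in WT replicates 1, 2 and 3 and at 54.21, 49.52 and 47.61 FPKM in the ARF4-edited replicates. Each ARF4-edited library lay below each WT library. The difference was not called (log2 change -0.71, SE 0.17, adjusted p = 0.165). In GSK5-edited grains the gene stood at 75.43, 74.71 and 84.72 FPKM, within the WT range. The transcript was thus still present in every ARF4-edited library; an edit can leave the transcript level as it was, and the table holds no reads that would show the edited bases. The reference table lists ARF2 as another name of this gene, while the separate gene entered as ARF2 among the auxin response factors is LOC_Os01g48060. The locus entered as GSK5 (LOC_Os03g62500, name unchecked) read 32.07, 39.33 and 47.96 FPKM in WT and 34.3, 48.27 and 39.67 FPKM in ARF4-edited grains, with overlapping groups (log2 change 0.04, SE 0.2, adjusted p = 0.937).

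Of the 22334 genes, 68 were called higher in ARF4-edited grains (0.304%) and 19 lower (0.0851%). All 87 had groups that did not overlap, as had 10.9% of all tested genes with ARF4-edited grains above WT and 12.8% with ARF4-edited grains below. An unadjusted p under 0.05 was found for 3667 genes. The median log2 change over all tested genes was 0.05. The counts of calls depended on single libraries. Without WT replicate 1 they were 40 higher and 3 lower, and without WT replicate 2 they were 28 and 0. Without WT replicate 3 they were 66 and 58. Without ARF4 replicate 1, 2 or 3 the higher counts were 0, 18 and 0, and the lower counts 0, 1 and 0. In these fits only 34 of the 87 genes were tested, since a gene expressed in ARF4-edited grains alone then has too few libraries to pass the filter. All 19 lower genes were among the 34, so the filter did not remove them, and 0, 5 and 0 of the 34 were still called. When the 22334 genes were kept, an alternative chosen after seeing the data, the higher and lower counts were 31 and 1, 136 and 21, and 104 and 18 without ARF4 replicate 1, 2 and 3, and 32, 70 and 70 of the 87 calls were kept.

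**Figure D1:**
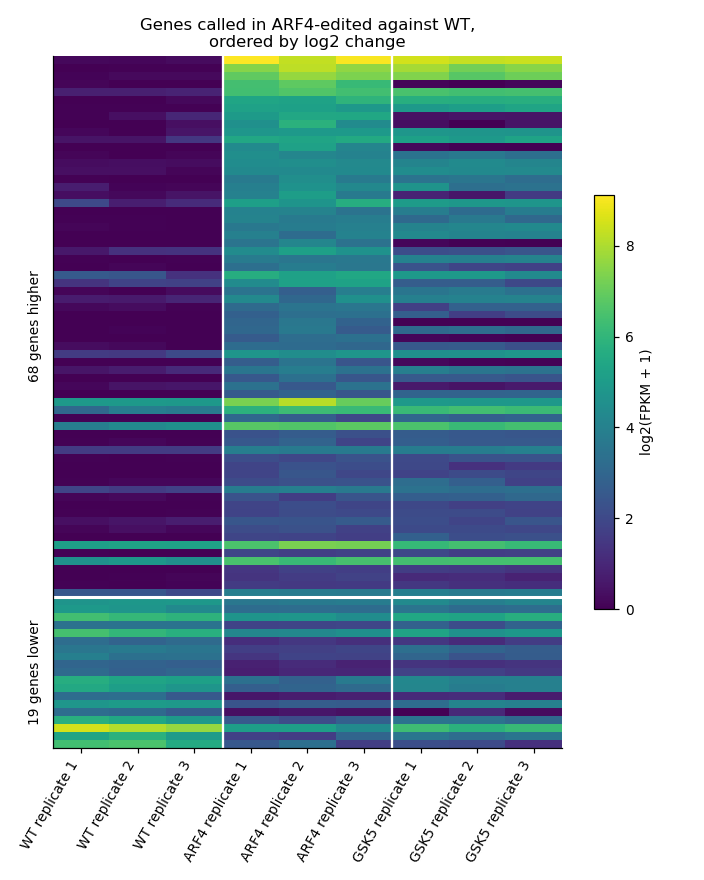
Heat map of log2(FPKM + 1) for the 87 called genes (rows, ordered by log2 change) in the 9 libraries (columns). The 68 higher genes are dark, near 0, in most WT rows and lighter in all 3 ARF4-edited libraries; the GSK5-edited libraries, which were not used to choose the genes, are shown beside them.

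Most of the genes that rose were close to 0 in WT. In 53 of the 68 every WT library was under 1 FPKM, and 13 of these were listed at 0 in all WT libraries. Such genes pass the filter only through the ARF4-edited libraries, so they had to differ; 180 tested genes had every WT library under 1 and every ARF4-edited library at 1 or over, and 53 of these were called. The mirror class, with every ARF4-edited library under 1 and every WT library at 1 or over, held 117 tested genes, and 2 of these were called. In the other 15 called genes WT reached 1 FPKM, with values from 0.39 to 36.85 in WT and from 9.57 to 282.74 in ARF4-edited grains. Their log2 changes lay between 1.49 and 4.63. The 19 genes that fell ranged from 4.88 to 360.3 FPKM in WT and from 0.29 to 33.32 in ARF4-edited grains, with falls of 1.06 to 3.65 on the log2 scale.

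The deposited identifiers carry no gene names, so 4 of the genes of largest change are given by identifier. LOC_Os03g02470 read 0.14, 0.12 and 0.19 FPKM in WT, 556.86, 311.54 and 520.89 in ARF4-edited and 357.22, 320.1 and 338.16 in GSK5-edited grains. Its log2 change was 8.61 (SE 0.24, adjusted p = 0.000131). LOC_Os07g26100 read 0.02, 0.03 and 0.03 FPKM in WT, 175.21, 292.59 and 196.52 in ARF4-edited and 236.67, 144.99 and 179.46 in GSK5-edited grains (log2 change 7.72, SE 0.21, adjusted p = 0.000131). Both genes were off or nearly off in every WT library and high in every edited library. Among the falls, LOC_Os05g15880 read 80.6, 92.86 and 46.63 FPKM in WT, 4.73, 9.08 and 2.18 in ARF4-edited and 3.56, 3.2 and 1.42 in GSK5-edited grains (log2 change -3.65, SE 0.47, adjusted p = 0.0483). LOC_Os12g15390 read 39.29, 55.33 and 30.97 FPKM in WT, 2.37, 2.04 and 6.78 in ARF4-edited and 11.08, 8.65 and 10.64 in GSK5-edited grains (log2 change -3.28, SE 0.41, adjusted p = 0.0459). The calls for LOC_Os05g15880 and LOC_Os12g15390 were lost when any 1 of the 6 libraries was left out, with adjusted p of 0.0554 to 0.464 and 0.0598 to 0.464, and with a pseudocount of 0.1, no filter or the mean filter (up to 0.0877 and 0.083). With the gene set kept, LOC_Os05g15880 held its call without ARF4 replicate 2 (adjusted p = 0.0331) and LOC_Os12g15390 without ARF4 replicate 3 (adjusted p = 0.0173). With median-of-ratios scaling, quantile normalization or the replicate block LOC_Os12g15390 was lost too (0.0621, 0.0635 and 0.202). Both calls among the rises held in every alternative in which the gene was tested.

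The GSK5-edited libraries share their WT controls with this comparison, so their levels are set beside the called genes only as values. Among the 53 risen genes that were under 1 FPKM in WT, 42 read 1.29 to 357.22 FPKM in the GSK5-edited libraries and 1.75 to 556.86 in the ARF4-edited ones. A further 9 stayed at 0 to 0.57 FPKM in the GSK5-edited libraries and read 4.33 to 114.41 in the ARF4-edited ones. The remaining 2 lay on both sides of 1 FPKM in GSK5-edited grains. For the 19 genes that fell, the GSK5-edited libraries read 0 to 76.96 FPKM, and in each gene they all lay below every WT library. In the 15 risen genes with WT reaching 1 FPKM, every GSK5-edited library lay above every WT library in 14. The shared WT libraries also served to choose these genes, so the counts are no separate test.

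By their identifiers the 87 called genes lay on all 12 chromosomes. The share of tested genes that was called ran from 0.164% on chromosome 9 to 0.8% on chromosome 11, where 9 genes rose and 1 fell. Chromosome 1, which carries ARF4, had 11 called genes of 3149 tested (0.349%), all of them higher. Of all tested genes 0.304% were called higher and 0.0851% lower. On chromosomes 6 and 8 the called genes, 4 on each, were all higher too. In 3 places a called gene stood next to another called gene in the order of identifiers, and the members of each pair rose together.

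Named genes come from 25 lists of 335 genes whose names could be checked, of which 273 were tested. GluA1 alone was called. The median log2 change of the 273 was 0.24. The groups did not overlap for 33 members with ARF4-edited grains above WT (12.1%, beside 10.9% of all tested genes) and for 27 below (9.89%, beside 12.8%), shares near those of all genes. An unadjusted p under 0.05 in limma was found for 59 (21.6%, beside 16.4% of all tested genes). Every other member below is reported by its values and was not called. Within a list the most abundant member and the one of largest change were taken by rule; further members are named after their values were seen.

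GluA1, which encodes a glutelin, was read at 0.11, 0.41 and 0.46 FPKM in WT, at 9.61, 4.86 and 9.73 FPKM in ARF4-edited and at 0.55, 0.39 and 0.57 FPKM in GSK5-edited grains. It rose in ARF4-edited grains (log2 change 2.73, SE 0.3, adjusted p = 0.0236), and every ARF4-edited library stood above every other library. With every WT library under 1 FPKM it passed the filter only through the ARF4-edited libraries, so a gene kept in this way had to differ. Glutelin genes are close copies, so a value of any one of them is uncertain. The call was lost without WT replicate 1, 2 or 3 (adjusted p = 0.12, 0.149 and 0.0537) and, with the gene set kept, without ARF4 replicate 1 or 3 (0.17 and 0.0559). It was also lost with log2(FPKM + 5) (0.0667), with no filter (0.0656) and with a replicate block (0.175). GluA2 read 2.96, 3.06 and 4.04 FPKM in WT and 4.71, 4.8 and 3.33 FPKM in ARF4-edited grains, with overlapping groups. Of the 6 tested storage protein and endosperm regulator genes 1 rose, 5 were not called, and the median log2 change was 0.26. Of the other checked storage genes, GluA3, GluB2, GluB4 and GluB5 did not pass the filter.

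**Figure D2:**
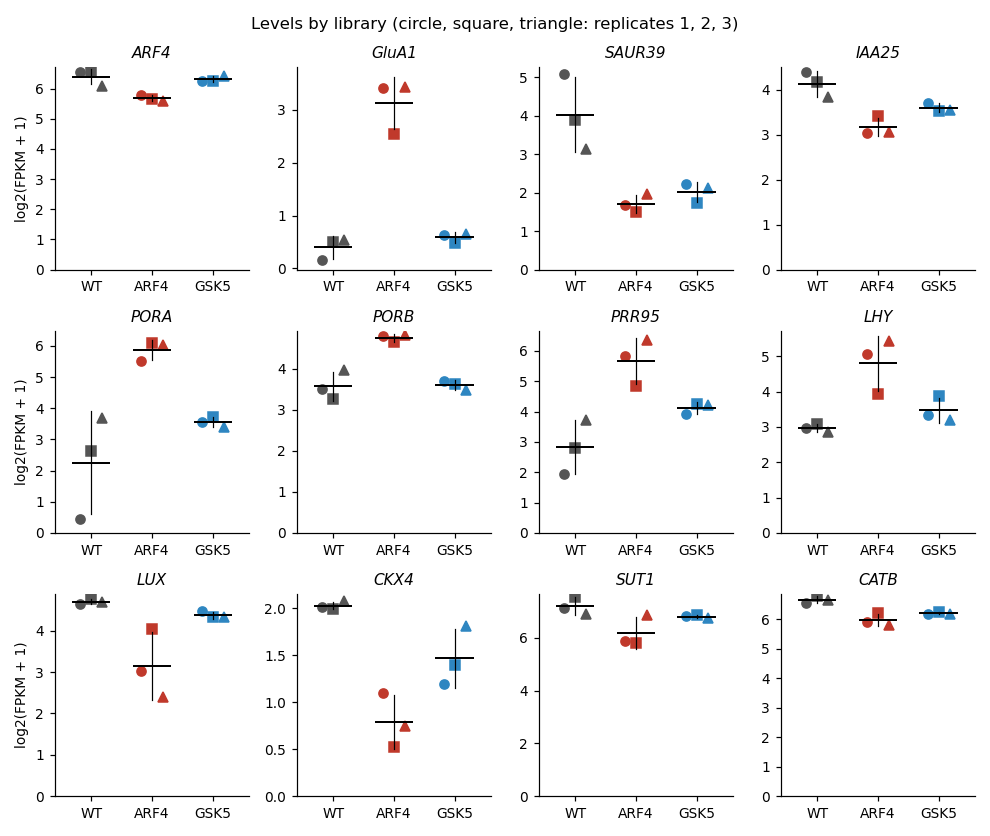
Levels of 12 genes as log2(FPKM + 1) in WT, ARF4-edited and GSK5-edited libraries, with symbols for replicates 1 to 3, a bar for the group mean and a line for the SD (n = 3). In every panel each ARF4-edited library lies on 1 side of all WT libraries, as in 23.7% of all tested genes, and GluA1 is the called gene among them. The panels were picked with the values known, and IAA25, PORB, LHY, LUX, CKX4 and SUT1 were named only after their values were seen.

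Genes of the auxin response were examined as the family of the edited gene. Of 23 tested auxin response factors 0 were called by limma, 3 had an unadjusted p under 0.05, and 20 had a log2 change above 0, with a median of 0.52 beside 0.05 over all genes. By the mean over the 6 libraries ARF4 was the most abundant member, and it had the lowest log2 change of the family. In ARF4-edited grains alone its mean of 50.45 FPKM was below those of ARF23 (63.92), ARF21 (59.16), ARF12 (58.43) and ARF24 (53.91). ARF17, the member of largest change, read 7.43, 19.5 and 24.54 FPKM in WT and 37.68, 55.88 and 29.35 in ARF4-edited grains (log2 change 1.31, SE 0.46, adjusted p = 0.256). The family differed among the ARF4-edited libraries. Its mean log2 level was 4.53, 4.96 and 3.89 in ARF4 replicates 1, 2 and 3 and 3.55, 4.03 and 4.22 in the WT replicates, so ARF4 replicate 3 lay within the WT range. ARF6 read 25.95, 59.11 and 6.81 FPKM in the ARF4-edited replicates against 8.27, 15.58 and 8.1 in WT. ARF9 read 34.74, 28.16 and 2.89 FPKM in the ARF4-edited replicates against 3.48, 13.07 and 6.02 in WT. In both genes ARF4 replicate 3 was the lowest of the 6 libraries. ARF21 was among the steadier members, with 37.21, 50.02 and 52.06 FPKM in WT and 57.72, 63.21 and 56.55 in ARF4-edited grains (log2 change 0.36, SE 0.17, adjusted p = 0.347).

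Of 21 tested Aux/IAA genes, which encode the repressors that bind ARF proteins, 0 were called by limma, 4 had an unadjusted p under 0.05 and the median log2 change was 0.48. IAA17, the most abundant, read 52.74, 130.15 and 245.49 FPKM in WT and 221.07, 412.95 and 156.1 in ARF4-edited grains (log2 change 1.02, SE 0.62, adjusted p = 0.434). IAA23, the member of largest change, read 0.93, 2.98 and 4.72 FPKM in WT and 7.97, 10.47 and 10.44 in ARF4-edited grains (log2 change 1.58, SE 0.41, adjusted p = 0.187). IAA31 read 0.49, 0.69 and 1.11 FPKM in WT and 3.08, 8.14 and 1.33 in ARF4-edited grains. IAA25 lay the other way, at 20.11, 17.18 and 13.24 FPKM in WT and 7.23, 9.65 and 7.4 in ARF4-edited grains (log2 change -0.96, SE 0.2, adjusted p = 0.137). The groups of IAA23, IAA31 and IAA25 did not overlap, and those of IAA17 did.

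Among 9 tested genes of auxin synthesis, transport, receptors, SAUR39 and GH3, 0 were called by limma, 2 had an unadjusted p under 0.05, both lower, and the median log2 change was -0.16. SAUR39, a small auxin-up RNA known in rice as a negative regulator of auxin synthesis and transport, read 32.61, 13.81 and 7.73 FPKM in WT and 2.19, 1.81 and 2.88 in ARF4-edited grains (log2 change -2.32, SE 0.49, adjusted p = 0.134). In GSK5-edited grains it read 3.67, 2.33 and 3.31 FPKM. GH3-2, an enzyme that conjugates auxin to amino acids, read 70.49, 19.65 and 20.9 FPKM in WT and 10.22, 7.17 and 10.75 in ARF4-edited grains (log2 change -1.64, SE 0.5, adjusted p = 0.222). Every ARF4-edited library was below every WT library for both genes, and WT replicate 1 was the highest of all. FIB, a tryptophan aminotransferase of auxin synthesis and the most abundant member, had overlapping groups (10.64, 20.16 and 74.96 FPKM in WT, 21.44, 42.09 and 12.85 in ARF4-edited grains), and its log2 change of -0.16 turned to 0.6 without WT replicate 3.

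Brassinosteroid genes were described because the series also edited a GSK3-like kinase. Of 15 tested members 0 were called by limma, 4 had an unadjusted p under 0.05 and the median log2 change was 0.26. BZR1, a transcription factor that carries out the brassinosteroid response, read 10.92, 16.86 and 20.4 FPKM in WT, 29.07, 42.51 and 36.18 in ARF4-edited and 20.97, 21.97 and 25.24 in GSK5-edited grains (log2 change 1.14, SE 0.26, adjusted p = 0.153). BRI1, the receptor, read 15.37, 13.07 and 20.71 FPKM in WT and 24.74, 23.92 and 25.13 in ARF4-edited grains (log2 change 0.58, SE 0.19, adjusted p = 0.231). D2, a cytochrome P450 of brassinosteroid synthesis, read 33.53, 19.16 and 13.23 FPKM in WT and 8.47, 9.24 and 9.55 in ARF4-edited grains (log2 change -1.09, SE 0.32, adjusted p = 0.215). For these 3 genes the groups did not overlap. BRD1, another synthesis enzyme and the most abundant member, read 250.37, 382.36 and 330.45 FPKM in WT and 204.61, 110.15 and 296.44 in ARF4-edited grains. BU1, a helix-loop-helix protein that promotes lamina bending and the member of largest change, read 0, 0.26 and 5.54 FPKM in WT and 12.24, 46.11 and 3.15 in ARF4-edited grains (log2 change 2.77, SE 1.07, adjusted p = 0.284), and both genes had overlapping groups.

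Cytokinin genes had a log2 change above 0 in 3 of 9 tested members. By limma 0 were called, 3 had an unadjusted p under 0.05, all lower, and the median log2 change was -0.43. LOG, the enzyme that releases active cytokinin, read 35.37, 23.92 and 20.13 FPKM in WT, 14.29, 7.29 and 9.02 in ARF4-edited and 10.28, 5.86 and 9.14 in GSK5-edited grains (log2 change -1.31, SE 0.3, adjusted p = 0.155). CKX4, a cytokinin oxidase that breaks the hormone down, read 3.04, 2.99 and 3.21 FPKM in WT and 1.14, 0.44 and 0.68 in ARF4-edited grains (log2 change -1.24, SE 0.21, adjusted p = 0.0885). RR9, a response regulator that cytokinin induces, read 20.87, 18.93 and 18.7 FPKM in WT and 12.64, 17.09 and 12.84 in ARF4-edited grains. Every ARF4-edited library was below every WT library in these 3 genes. HK3, a cytokinin receptor and the most abundant member, had overlapping groups (log2 change 0.06, SE 0.28, adjusted p = 0.931), and its change was -0.01 under median-of-ratios scaling.

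Of 20 tested gibberellin, abscisic acid and ethylene genes 0 were called by limma, 1 had an unadjusted p under 0.05 and the median log2 change was 0.12. That gene was SAPK2, a kinase of abscisic acid signalling, at 14.54, 16.99 and 17.25 FPKM in WT, 43.38, 31.11 and 32.53 in ARF4-edited and 15.79, 15.8 and 19.41 in GSK5-edited grains (log2 change 1.08, SE 0.17, adjusted p = 0.0776). ABA8ox1, an enzyme that breaks abscisic acid down and the member of largest change, read 4.69, 4.29 and 6.36 FPKM in WT and 43.55, 3.13 and 97.52 in ARF4-edited grains (log2 change 2.12, SE 1.11, adjusted p = 0.385). Its ARF4 replicates 1 and 3 were high and replicate 2 was below every WT library. Without that replicate, with the gene set kept, its log2 change was 3.45 (adjusted p = 0.0392). Over each library left out in turn, its adjusted p reached 0.721. With the filter applied anew, its lowest adjusted p was 0.063. EIL1, a transcription factor of the ethylene response and the most abundant member, read 105.07, 99.88 and 64 FPKM in WT and 98, 87.85 and 69.74 in ARF4-edited grains.

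Genes of sugar supply were described because grain filling draws on sucrose. Of 21 tested members 0 were called by limma, 6 had an unadjusted p under 0.05, of which 5 were lower, and the median log2 change was -0.17. SUT1, the main sucrose transporter of grain filling, read 138, 187.02 and 118.56 FPKM in WT and 57.03, 54.92 and 114.82 in ARF4-edited grains (log2 change -1.02, SE 0.34, adjusted p = 0.24). SUS4, a sucrose synthase, read 125.63, 88.8 and 75.62 FPKM in WT and 58.63, 34.14 and 74.82 in ARF4-edited grains. For both, ARF4 replicate 3 lay just under the lowest WT library and the other ARF4-edited libraries lower. SWEET14, a sugar exporter, read 19.99, 20.44 and 27.07 FPKM in WT and 7.63, 16.76 and 6.35 in ARF4-edited grains. SWEET5, a sugar transporter and the member of largest change, read 6.02, 2.81 and 39.14 FPKM in WT and 1.26, 1.54 and 1.16 in ARF4-edited grains (log2 change -2.15, SE 0.83, adjusted p = 0.284). The groups did not overlap for SWEET14 and SWEET5. SWEET11, the most abundant member, read 293.19, 571.07 and 1515.53 FPKM in WT and 1006.05, 169.28 and 1333.99 in ARF4-edited grains; its log2 change of -0.05 was 0.87 without ARF4 replicate 2.

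Starch genes gave small differences. Of 7 tested members 0 were called by limma, 2 had an unadjusted p under 0.05, of which 1 was lower, and the median log2 change was -0.29. SSI, the most abundant, read 53.76, 36.84 and 82.84 FPKM in WT and 43.24, 34.31 and 59.94 in ARF4-edited grains (log2 change -0.29, SE 0.34, adjusted p = 0.675). PPDKB, a pyruvate orthophosphate dikinase whose loss makes floury grains, read 26.98, 17.24 and 17.6 FPKM in WT and 11.81, 12.5 and 14 in ARF4-edited grains, with groups that did not overlap (log2 change -0.62, SE 0.21, adjusted p = 0.239).

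Photosynthesis and chlorophyll genes, which mark the green pericarp, differed among themselves: PORA, PORB and CAB1R stood above WT in every ARF4-edited library, and genes entered as RBCS2 and RBCS3, small subunits of the carbon-fixing enzyme Rubisco, stood below it. Of 10 tested members with a checked name 0 were called by limma, 4 had an unadjusted p under 0.05, all higher, and the median log2 change was 0.69. PORA, a protochlorophyllide reductase that makes chlorophyll precursor in light, read 0.36, 5.12 and 12.02 FPKM in WT, 44.59, 67.53 and 64.19 in ARF4-edited and 10.66, 12.07 and 9.62 in GSK5-edited grains (log2 change 3.63, SE 0.79, adjusted p = 0.143). PORB, its sister enzyme, read 10.3, 8.65 and 14.56 FPKM in WT and 26.03 ± 1.68 FPKM (SD, n = 3) in ARF4-edited grains (log2 change 1.18, SE 0.2, adjusted p = 0.092). PORB reached an adjusted p of 0.0462 once WT replicate 3 was left out, and up to 0.532 with another library left out instead. CAB1R, a chlorophyll-binding protein of the light-harvesting antenna, read 13.99, 25.98 and 116.1 FPKM in WT and 403.93, 156.44 and 753.5 in ARF4-edited grains (log2 change 3.33, SE 0.89, adjusted p = 0.197). CHLH, a magnesium chelatase subunit of chlorophyll synthesis, read 10.72, 12.94 and 16.05 FPKM in WT and 25.41, 16.55 and 30.54 in ARF4-edited grains. In these 4 genes every ARF4-edited library was above every WT library, and ARF4 replicate 2 was the lowest ARF4-edited library for PORB, CAB1R and CHLH but the highest for PORA. CAB2R, the most abundant member, had overlapping groups, with 779.9, 429.59 and 578.99 FPKM in WT and 975.43, 598.78 and 1504.28 in ARF4-edited grains. The genes entered as RBCS2 (LOC_Os12g17600), RBCS3 (LOC_Os12g19381) and RBCS4 (LOC_Os12g19470) are left out of these counts because their names are unchecked, and they are close copies, so their values are uncertain. RBCS2 read 144.63, 55.84 and 133.94 FPKM in WT and 19.57, 33.28 and 33.7 in ARF4-edited grains (log2 change -1.84, SE 0.42, adjusted p = 0.151). RBCS3 read 1875.95, 1263.1 and 1158.95 FPKM in WT and 763.45, 740.2 and 804.55 in ARF4-edited grains (log2 change -0.86, SE 0.34, adjusted p = 0.286). The groups of both did not overlap, and those of RBCS4 did (log2 change -0.34). With unchecked names included, 21 members were tested, of which 8 had an unadjusted p under 0.05 above WT and 2 below, and the median was 0.65.

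Clock genes vary with the hour of sampling, which the labels do not give. Of 8 tested members 0 were called by limma, 3 had an unadjusted p under 0.05 and the median log2 change was 0.28. PRR95, a pseudo-response regulator, read 2.85, 6.02 and 12.25 FPKM in WT and 55.43, 28.02 and 81.21 in ARF4-edited grains (log2 change 2.85, SE 0.55, adjusted p = 0.122). LHY, a MYB-type regulator of the clock, read 6.89, 7.49 and 6.27 FPKM in WT and 32.62, 14.26 and 42 in ARF4-edited grains (log2 change 1.83, SE 0.38, adjusted p = 0.134). LUX, a member of the evening complex, lay the other way, at 24.11, 26.21 and 24.7 FPKM in WT and 7.13, 15.39 and 4.26 in ARF4-edited grains (log2 change -1.55, SE 0.4, adjusted p = 0.189). In all 3 genes ARF4 replicate 2 was the ARF4-edited library nearest to WT. Without it, and with the gene set kept, the adjusted p was 0.0182 for LHY and 0.0427 for LUX. Their log2 changes were then 2.27 and -1.99. It was singled out as the library nearest to WT. Over each library left out in turn, adjusted p reached 0.505 for LHY and 0.614 for LUX. With the filter applied anew, the lowest adjusted p was 0.049 for LHY and 0.065 for LUX. GI (GIGANTEA), a clock-associated protein and the most abundant member, read 348.2, 411.4 and 367.66 FPKM in WT and 354.88, 299 and 373.67 in ARF4-edited grains. The sampling hour was not tested.

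Several heat shock genes also had ARF4 replicate 2 nearest to WT, but not all members did. Of 19 tested members 0 were called by limma, 8 had an unadjusted p under 0.05, of which 7 were higher, and the median log2 change was 0.85. HSP24.1, a small heat shock protein and the member of largest change, read 0.76, 0.5 and 0.97 FPKM in WT and 20.11, 1.07 and 29.56 in ARF4-edited grains (log2 change 2.67, SE 0.99, adjusted p = 0.272). The heat shock factor gene HSFB2b read 0.76, 1.01 and 1.48 FPKM in WT and 13.71, 1.41 and 17.37 in ARF4-edited grains. HSFA2d read 3.89, 5.28 and 10.26 FPKM in WT and 37.14, 6.83 and 74.09 in ARF4-edited grains. ARF4 replicates 1 and 3 were far above WT in these genes, whereas replicate 2 lay in or near the WT range. HSFA2c (9.28, 10.32 and 12.16 FPKM in WT, 41.77, 13.22 and 68.14 in ARF4-edited grains) and HSFB2c (1.02, 1.28 and 1.01 in WT, 9.41, 2.59 and 11.73 in ARF4-edited grains) had the same order. HSP16.9B did not, at 1.69, 1.68 and 3.76 FPKM in WT and 20.99, 15.03 and 4.54 in ARF4-edited grains, with replicate 3 lowest, nor did BIP1, a chaperone of the endoplasmic reticulum, at 85.29, 91.55 and 75.23 FPKM in ARF4-edited grains. Without ARF4 replicate 2 and with the gene set kept, adjusted p was 0.0116 for HSP24.1 and 0.0429 for HSFA2c. It was 0.0192 for HSFB2c and 0.0185 for HSFB2b. Over each library left out in turn, adjusted p reached 0.676, 0.661, 0.617 and 0.676 in that order. HSP24.1, under 1 FPKM in every WT library, passed the filter only through the ARF4-edited libraries, so it had to differ. With the filter applied anew, its adjusted p was 0.231 to 0.57 where it was tested, and that of HSFA2c was 0.065 at lowest. PDIL1-1, a protein disulfide isomerase of the endoplasmic reticulum and the most abundant member, read 278.39, 269.66 and 327.76 FPKM in WT and 284.01, 280.52 and 319.42 in ARF4-edited grains (log2 change 0.02, SE 0.19, adjusted p = 0.973); the change was -0.05 under median-of-ratios scaling.

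The cellulose synthases of the secondary wall, CESA4, CESA7 and CESA9, split the ARF4-edited libraries another way. CESA4 read 0.95, 7.53 and 28.76 FPKM in WT and 206.76, 200.55 and 2.88 in ARF4-edited grains. CESA7 read 0.19, 4.8 and 20.93 FPKM in WT and 188.32, 200.53 and 0.88 in ARF4-edited grains (log2 change 2.96, SE 2.04, adjusted p = 0.479). CESA9 read 0.59, 5.99 and 23.32 FPKM in WT and 155.63, 168.52 and 1.04 in ARF4-edited grains. In ARF4 replicates 1 and 2 all 3 genes were above every other library of the 9, while in ARF4 replicate 3 they lay within the WT range. Without ARF4 replicate 3 the log2 changes were 4.69, 5.2 and 4.66 for CESA4, CESA7 and CESA9, with adjusted p of 0.188, 0.18 and 0.191. SUS1, a sucrose synthase, had a like order, with 13.63, 63.55 and 62.79 FPKM in WT and 203.67, 234.81 and 41.67 in ARF4-edited grains. CESA3, a primary wall enzyme, read 43.44, 84.33 and 75.11 FPKM in WT and 155.62, 135.76 and 92.56 in ARF4-edited grains, with groups that did not overlap. Of 11 tested genes of cellulose, lignin and wall synthesis 0 were called by limma, 1 had an unadjusted p under 0.05 and the median log2 change was 0.93. The most abundant, 4CL3, a ligase of the lignin pathway, read 129.61, 256.25 and 161.75 FPKM in WT and 176.18, 204.62 and 161.96 in ARF4-edited grains.

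**Figure D3:**
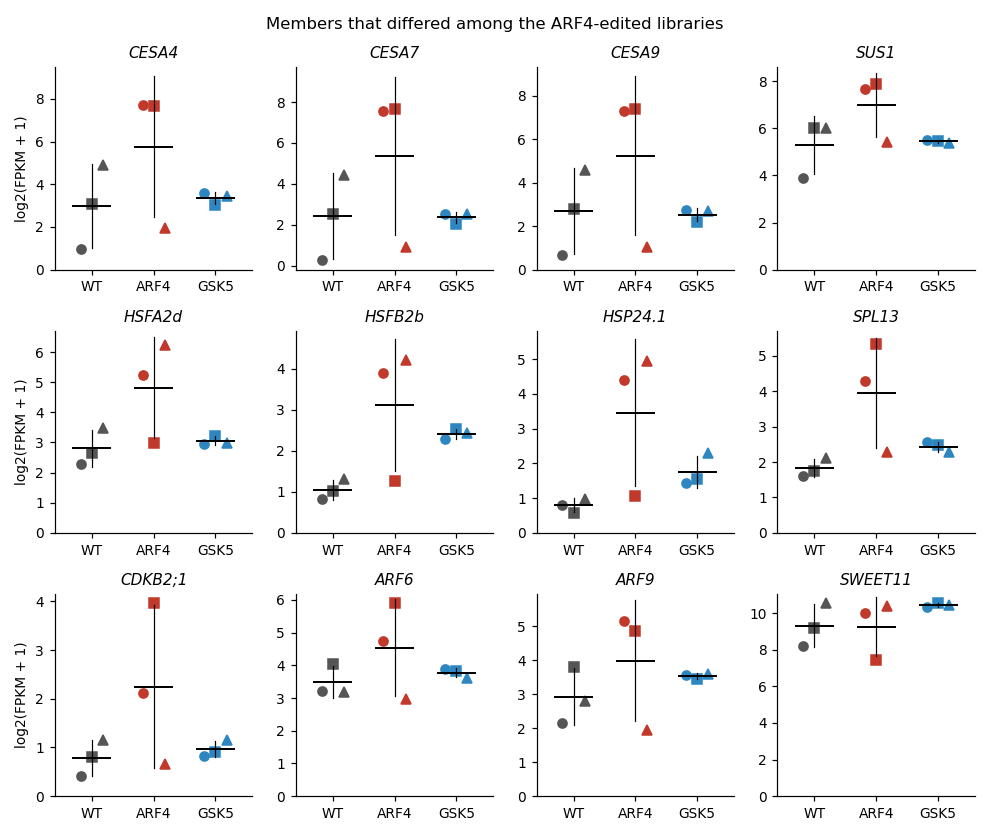
Levels of 12 genes as log2(FPKM + 1) in the 3 groups, with symbols for replicates 1 to 3, a bar for the mean and a line for the SD (n = 3). CESA4, CESA7 and CESA9 are high in ARF4 replicates 1 and 2 only, HSFA2d, HSFB2b and HSP24.1 in replicates 1 and 3, and CDKB2;1 is highest in replicate 2.

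Expansins, which loosen the wall during cell expansion, varied more among the WT replicates than among the ARF4-edited ones. Of 13 tested members 0 were called by limma, 1 had an unadjusted p under 0.05, the groups overlapped in all 13 and the median log2 change was 0.59, which turned to -0.06 without WT replicate 1 and was 1.34 without WT replicate 3. Their mean log2 level was 3.23, 4.65 and 6.44 in WT replicates 1, 2 and 3 and 5.51, 5.58 and 5.6 in the ARF4-edited replicates. EXPB3, the most abundant, read 111.27, 489.61 and 1873.13 FPKM in WT and 524.28, 372.82 and 927.8 in ARF4-edited grains, and its log2 change of 0.27 turned to -0.76 without WT replicate 1. EXPA5, the member of largest change, read 0.45, 4.43 and 17.68 FPKM in WT and 16.09, 34.71 and 23.84 in ARF4-edited grains (log2 change 2.23, SE 0.9, adjusted p = 0.295).

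Of 8 tested cell division genes 0 were called by limma, 0 had an unadjusted p under 0.05 and the median log2 change was 0.14. CDKB2;1, a mitotic kinase and the member of largest change, read 0.33, 0.74 and 1.21 FPKM in WT and 3.37, 14.69 and 0.57 in ARF4-edited grains, so ARF4 replicate 2 was the highest library and ARF4 replicate 3 lay within WT (log2 change 1.47, SE 0.8, adjusted p = 0.399). KRP1, a cell cycle inhibitor and the most abundant, read 33.78, 44.02 and 66.2 FPKM in WT and 45.15, 55.21 and 78.02 in ARF4-edited grains.

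Of 12 tested grain size genes 0 were called by limma, 3 had an unadjusted p under 0.05, all higher, and the median log2 change was 0.45. The groups did not overlap for 5 members, each with ARF4-edited grains above WT, a class that held 10.9% of all tested genes. SPL13, a transcription factor that promotes grain length, read 2.03, 2.39 and 3.29 FPKM in WT and 18.47, 39.06 and 3.83 in ARF4-edited grains (log2 change 2.14, SE 0.74, adjusted p = 0.252). GW2, a ubiquitin ligase that restricts grain width, read 10.88, 10.39 and 11.86 FPKM in WT, 15.57, 17.27 and 16.25 in ARF4-edited and 17.44, 17.71 and 16.59 in GSK5-edited grains (log2 change 0.53, SE 0.13, adjusted p = 0.174). SPL14, a regulator of panicle branching, read 1.55, 2.07 and 2.46 FPKM in WT and 4.28, 4.23 and 3.08 in ARF4-edited grains. GW2 had close replicates in each group, whereas SPL13 was high in ARF4 replicates 1 and 2 alone. RGA1, a G protein subunit and the most abundant member, had overlapping groups (log2 change 0.04, SE 0.14, adjusted p = 0.893), and its change was -0.02 under median-of-ratios scaling.

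MADS-box genes, which set floral organ identity, were abundant in every library. Of 14 tested members 0 were called by limma, 3 had an unadjusted p under 0.05, all lower, and the median log2 change was -0.26. MADS15, of the FRUITFULL type, read 93.51, 86.62 and 62.73 FPKM in WT, 35.04, 54.87 and 26.58 in ARF4-edited and 44.91, 34.83 and 41.06 in GSK5-edited grains (log2 change -1.08, SE 0.3, adjusted p = 0.202). MADS18, of the same type, read 73.85, 59.76 and 51.74 FPKM in WT and 32.25, 47.88 and 31.46 in ARF4-edited grains. MADS1, which is needed for lemma and palea identity, read 324.19, 333.44 and 254.81 FPKM in WT and 196.94, 243.44 and 171.04 in ARF4-edited grains. These 3 genes were below WT in every ARF4-edited library. MADS8, the most abundant, read 533.85, 668.72 and 733.58 FPKM in WT and 564.69, 534.43 and 638.56 in ARF4-edited grains; its log2 change of -0.15 was 0.04 under quantile normalization. Hd1, a photoperiod regulator of flowering, read 18.08, 8.27 and 5.5 FPKM in WT and 2.11, 2.22 and 1.87 in ARF4-edited grains (log2 change -1.77, SE 0.4, adjusted p = 0.147); it was 1 of 2 flowering time genes tested, with an unadjusted p under 0.05 for this 1.

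Embryo and maturation genes held 4 tested members, with 0 called by limma, 1 with an unadjusted p under 0.05 and a median log2 change of -0.54. RAB16A, a dehydrin of late embryos and drying tissue, read 29.81, 16.86 and 8.05 FPKM in WT and 2.09, 1.3 and 5.69 in ARF4-edited grains, each ARF4-edited library below each WT library (log2 change -2.24, SE 0.57, adjusted p = 0.184). LEA3, another late embryogenesis protein and the most abundant, read 17.17, 6.7 and 46.21 FPKM in WT and 8.05, 4.97 and 24.54 in ARF4-edited grains, with 149.61, 174.13 and 135.64 in GSK5-edited grains.

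Defence genes varied widely among the WT libraries. Of 10 tested members 0 were called by limma, 4 had an unadjusted p under 0.05, of which 2 were lower, and the median log2 change was 0.21. The chitinase gene CHT3 read 72.44, 121.51 and 19.21 FPKM in WT and 7.77, 6.25 and 11.66 in ARF4-edited grains (log2 change -2.61, SE 0.66, adjusted p = 0.182). CHT1, another chitinase gene, read 137.5, 279.66 and 38.07 FPKM in WT and 29.66, 27.98 and 25.14 in ARF4-edited grains. WT replicate 3 was the WT library nearest to the ARF4-edited ones. Without it the log2 changes were -3.35 and -2.79, with adjusted p of 0.0394 for CHT3 and 0.0483 for CHT1. With another library left out instead, adjusted p reached 0.6455 for CHT3 and 0.6662 for CHT1. PBZ1, a pathogenesis-related protein and the most abundant member, read 115.43, 581.13 and 50.49 FPKM in WT and 178.71, 127.09 and 188.78 in ARF4-edited grains. Its log2 change of 0.11 turned to -0.67 without WT replicate 3. CPS2, a diterpene synthase of phytoalexin formation and the single tested member of its list, read 2.42, 5.68 and 1.9 FPKM in WT and 1.18, 0.44 and 1.11 in ARF4-edited grains (log2 change -1.11, SE 0.37, adjusted p = 0.241).

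Of 6 tested antioxidant genes 0 were called by limma, 3 had an unadjusted p under 0.05, of which 2 were lower, and the median log2 change was -0.25. CATB, a catalase, read 93.28, 111.32 and 99.19 FPKM in WT and 59.52, 72.86 and 54.52 in ARF4-edited grains (log2 change -0.7, SE 0.16, adjusted p = 0.159). APX1, a cytosolic ascorbate peroxidase, read 276.36, 275.19 and 299.77 FPKM in WT, 171.06, 231.74 and 167.62 in ARF4-edited and 308.44, 294.2 and 300.24 in GSK5-edited grains. For both genes every ARF4-edited library was below every WT library. CATA, another catalase and the most abundant, read 542.14, 810.04 and 847.26 FPKM in WT and 688.49, 485.08 and 879.32 in ARF4-edited grains.

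The remaining lists showed little separation of the groups. Of 13 tested jasmonate genes 0 were called by limma, 0 had an unadjusted p under 0.05 and the median log2 change was 0.01. JAZ7, a jasmonate repressor and the most abundant, read 133.02, 513.17 and 125.46 FPKM in WT and 362.07, 310.13 and 122.99 in ARF4-edited grains, and JAZ11, of largest change, had a log2 change of -1.22 (SE 0.56, adjusted p = 0.34). Of 9 tested genes of nitrogen, phosphate and metal transport 0 were called by limma, 0 had an unadjusted p under 0.05 and the median was -0.16. GS1;1, a glutamine synthetase, read 172.49, 307.7 and 239.77 FPKM in WT and 281.22, 328.26 and 195.7 in ARF4-edited grains, and VIT1, a vacuolar iron transporter, had a log2 change of -0.45 (SE 0.22, adjusted p = 0.361). Of 2 tested flavonoid genes 0 were called by limma, 0 had an unadjusted p under 0.05 and the median was 0.59. CHI, a chalcone isomerase, read 82.77, 112.85 and 124.62 FPKM in WT and 136.91, 140.48 and 114.86 in ARF4-edited grains. CHS1, a chalcone synthase, had a log2 change of 0.87 (SE 1.26, adjusted p = 0.739).

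**Figure D4:**
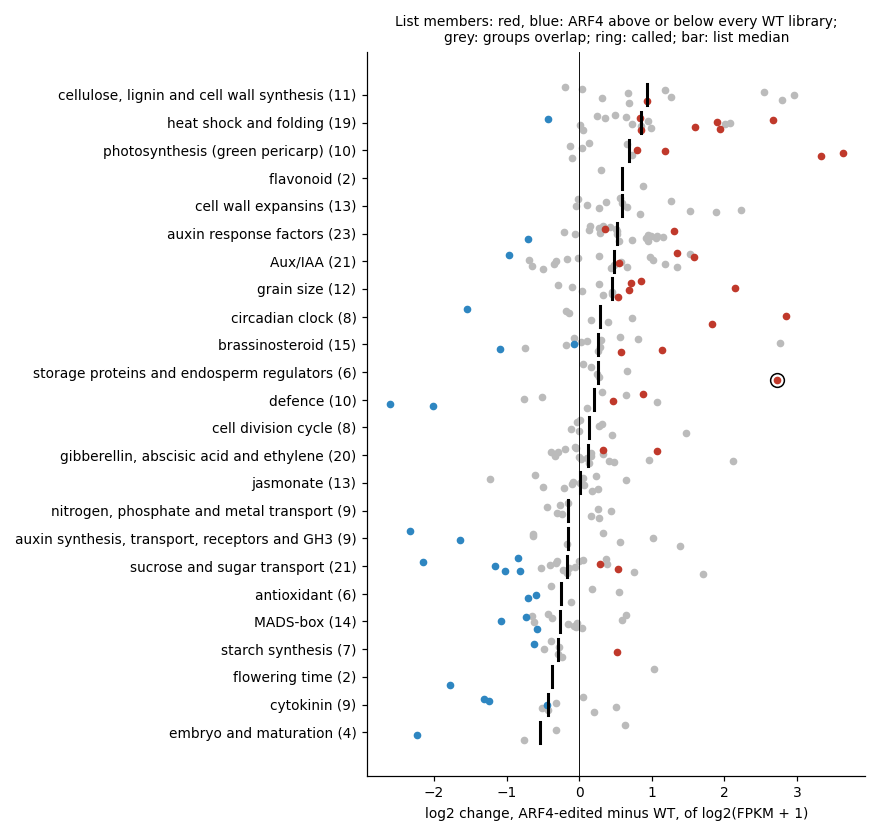
Log2 change of each tested member (points) in 24 lists, with the number of tested members in brackets and a bar for the list median. GluA1, ringed, is the called member; medians run from -0.54 for embryo and maturation genes to 0.93 for genes of cellulose, lignin and wall synthesis, beside 0.05 over all tested genes, with all 6 libraries.

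The list medians moved with single libraries. When 1 library was left out, 9 of 24 medians changed sign and 15 did not. The median of wall synthesis genes ran from 0.25 to 1.12, that of heat shock and folding genes from 0.47 to 1.12, that of auxin response factors from 0.28 to 0.79 and that of embryo and maturation genes from -0.93 to -0.24. Photosynthesis genes ran from 0.51 to 0.94 and cytokinin genes from -0.55 to -0.33. The mean log2 levels of the lists also varied by library. The wall synthesis genes stood at 7.01, 6.9 and 4.95 in ARF4 replicates 1, 2 and 3 and at 3.82, 5.41 and 6.04 in the WT replicates. The heat shock and folding genes stood at 4.63, 3.81 and 4.79 in the ARF4-edited and at 3.11, 3.4 and 3.76 in the WT replicates. The mean of photosynthesis genes with checked names, at 5.68, 5.44 and 5.77, was higher in each ARF4-edited library than in each WT library (4.36, 4.48 and 4.97). The mean of clock genes, at 5.57, 5.2 and 5.75, was also above each WT library (4.92, 5.07 and 5). Single members weigh on the clock mean. PRR95 and LHY had log2 changes of 2.85 and 1.83, LUX of -1.55, and 5 of the 8 members were above 0. Cytokinin genes, at 3.77, 3.69 and 3.47, were lower in each ARF4-edited library than in WT, at 4.02, 4.05 and 4.01. Other lists separated the groups as well. The means of storage protein and endosperm regulator, grain size, heat shock and folding, and gibberellin, abscisic acid and ethylene genes were higher in each ARF4-edited library. The storage list holds GluA1 and the heat shock list HSP24.1, which passed the filter only through the ARF4-edited libraries. Both had to differ, so the means of these lists are raised by them. The means of starch genes and of embryo and maturation genes were lower in each. For starch the gap was narrow, with 4.5 in ARF4 replicate 3 and 4.51 in WT replicate 2. With unchecked starch names included, 15 of 24 tested members had a log2 change above 0. In GSK5-edited grains the cytokinin genes stood at 3.56, 3.5 and 3.66 and the photosynthesis genes at 4.68, 4.58 and 4.37. The part of library composition in these differences was not tested.

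**Figure D5:**
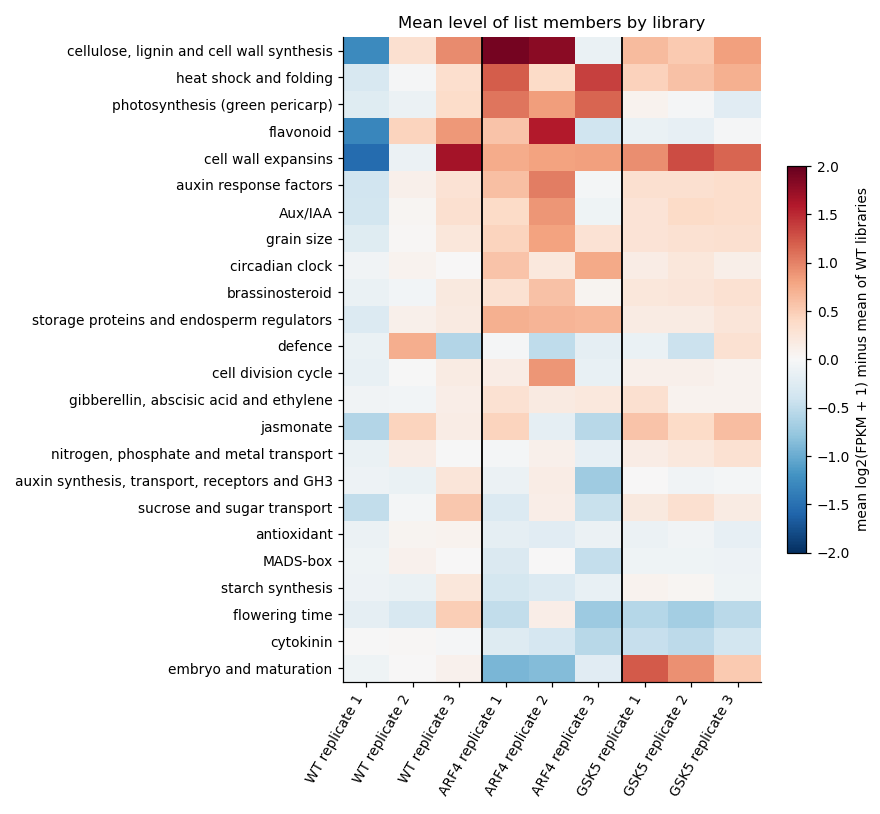
Mean log2(FPKM + 1) of the tested members of 24 lists (rows) in the 9 libraries (columns), as the difference from the mean of the WT libraries; colours stop at -2 and 2. Expansins differ most among the WT libraries, from 3.23 to 6.44, and wall synthesis genes among the ARF4-edited libraries, from 4.95 to 7.01.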

How the data were processed

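Caryopsis RNA was sequenced in 3 WT, 3 ARF4-edited and 3 GSK5-edited libraries. The authors deposited a single table of FPKM values, which holds 55986 rice genes under MSU identifiers. The submitters' processing notes name Bowtie 0.12.2 and mm8. As mm8 is a mouse build it cannot belong to a rice table; the build, annotation and quantifier used for rice are not given in the sources here. Count models were not used on FPKM, and absolute depth is unknown; relative depth came from the steps of low values (0.1 to 0.5 FPKM).

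Values were analysed as log2(FPKM + 1) with limma 3.58.1 in R 4.3.3 (mean-variance trend, no robust estimation, no covariates) over the 6 libraries of both groups, for genes at 1 FPKM or over in at least 3 of them, and p-values were adjusted by Benjamini-Hochberg over all genes tested. The fit was run on simulated data with independent noise for each gene. That simulation holds no differences of whole libraries, so it does not give the error rate in these data. Alternatives were pseudocounts of 0.1 and 5, no filter, a mean of at least 1 FPKM, all 9 libraries with a shared spread, median-of-ratios scaling, quantile normalization, array weights, the replicate number as a block, and each library left out. Tables and plots used Python 3.11.15, pandas 2.3.3, numpy 2.4.6, scipy and matplotlib.

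The comparison, the 25 gene lists and the tests were chosen with earlier results of these data known. Symbols and loci of the 487 list entries were written from memory; 484 are in the table, and 335 were kept because RefSeq (assembly ASM3414082v1) holds the same symbol on the same chromosome within 4 megabases of the place expected from the identifier. Named were ARF4 and GSK5, every called list member, otherwise the most abundant member and that of largest change in each list, at most 2 unnamed genes in each direction, and further members chosen after their values were seen. No genome sequence was used here.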

Additional observations from a re-analysis of the deposited data

How the results depend on the processing

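The direction of ARF4 held in every alternative run, with log2 changes of -0.86 to -0.64 when 1 library was left out; it was called with all 9 libraries (log2 change -0.71, adjusted p = 0.0371) and with array weights (-0.74, adjusted p = 0.00449), and in the other alternatives adjusted p was 0.0756 to 0.609. Counts of higher and lower genes, 68 and 19, were 318 and 511 with all 9 libraries. In that fit the GSK5-edited libraries lower the shared spread and more libraries enter it, and what raised the counts was not tested. The counts were 4625 and 4167 with array weights, which ran from 0.36 for WT replicate 1 to 6.44 for ARF4 replicate 1. With 1 library left out they ranged from 0 to 66 higher and 0 to 58 lower, or 28 to 136 and 0 to 66 with the gene set kept. The 6 pseudocount, filter and scaling settings stayed within 1.5 times of both counts (54 to 81 and 16 to 26).

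The replicate number as a block gave 25 higher and 3 lower genes, 27 of them among the 87. Same-numbered deviations correlated at 0.004, 0.031 and -0.212 in pairs 1, 2 and 3. None of the 6 libraries had its highest correlation with its own number. Deviations from a mean of 3 libraries constrain each other, so these values cannot settle whether the numbers pair the libraries.

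Some named genes, none of them called, turned sign or reached 0. With 1 library left out the ranges were -0.76 to 0.6 for FIB, -0.28 to 0.08 for EIL1, -0.19 to 0.25 for HK3, -0.03 to 0.12 for RGA1, -0.57 to 0 for SSI, -0.62 to 0.87 for SWEET11, -0.76 to 1.27 for EXPB3, -0.04 to 0.1 for PDIL1-1, -0.67 to 1.08 for PBZ1, -0.18 to 0.31 for 4CL3, -0.12 to 0.89 for JAZ7, -0.26 to 1.77 for CHS1, -0.05 to 0.38 for GS1;1, -0.32 to 0.11 for CATA, -0.04 to 0.28 for ARF24 and -0.1 to 0.18 for GSK5. With array weights the values were -0.12 for HK3, 0.11 for SSI, 0.66 for SWEET11, 0.01 for LEA3, -1.24 for PBZ1, -0.41 for 4CL3, -0.32 for JAZ7, -0.07 for GS1;1 and -0.15 for GSK5. With median-of-ratios scaling they were -0.01 for HK3, -0.02 for RGA1, -0.05 for PDIL1-1, -0.03 for 4CL3 and -0.03 for GSK5. With quantile normalization they were 0.01 for EIL1, 0.05 for SWEET11, 0.03 for GI and 0.04 for MADS8. The cause was not tested.

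With unchecked names included, an alternative chosen after seeing the data, the medians of 3 lists turned sign: 0.1 for starch, -0.5 for flavonoid and 0.17 for auxin synthesis, transport, receptors and GH3. With 1 library left out, medians turned sign for expansins (-0.06 to 1.34), auxin synthesis, transport, receptors and GH3 (-0.48 to 0.23), cell division (-0.18 to 0.31), defence (-0.12 to 0.41), flavonoid (-0.06 to 1.08), gibberellin, abscisic acid and ethylene (-0.05 to 0.17), jasmonate (-0.29 to 0.25), nitrogen, phosphate and metal transport (-0.23 to 0.19) and sugar genes (-0.32 to 0.08). The limits are 3 libraries a group, a spread set by single libraries and an unknown depth.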
